A study of Mus musculus with 13 samples.

Results

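Sox9 peaks of chondrocytes were described around 4 genes of the osteoblast, the bone-forming cell: Col1a1, Col1a2, Sp7 and Spp1. A peak belonged to a gene when its centre lay in a window fixed around that gene on mm9, at chr11:94740000-94880000 for Col1a1, chr6:4400000-4560000 for Col1a2, chr15:102120000-102270000 for Sp7 and chr5:104790000-104940000 for Spp1. The windows held 34 of the 45096 peaks listed for both tissues, 22 of the 27656 rib peaks and 12 of the 17440 nasal peaks. They were drawn by position alone. No mm9 gene annotation was used, so a peak is placed in a window and is not assigned to a promoter, an intron or a particular gene within it.

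The series profiled chromatin of wild-type, untreated ICR mice by ChIP-seq, with 1 Sox9 library from enzyme-digested rib chondrocytes at postnatal day 1 and 1 from enzyme-digested nasal septum chondrocytes at embryonic day 17.5. Both Sox9 libraries used the same antibody, and the other 11 libraries of the series were not analysed here. The lists give positions only, so the depth, height and significance of each peak are unknown, and the labelled cell type could not be checked against markers. The rib list is divided into Class I and Class II, a division that no source used here defines. With 1 library per tissue there is no replicate check, and tissue and stage differ together.

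Sox9 is an HMG-box transcription factor that chondrocytes require, and cartilage is made of type II collagen and aggrecan, genes that Sox9 activates. Osteoblasts follow another programme, in which Runx2 and Sp7 lead to a matrix of type I collagen and the mineral-binding proteins of bone. Both cell types arise from shared skeletal progenitors, which makes bone genes a contrast for a map of Sox9 in cartilage.

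Sp7, Col1a1 and Spp1 had Sox9 peaks in both tissues, whereas Col1a2 had none in either. Spp1 had the most rib peaks, 9, but 2 nasal peaks. Sp7 had 7 rib and 5 nasal peaks, and Col1a1 had 6 rib and 5 nasal peaks. Class I made up 5 of the 7 rib peaks at Sp7, 3 of the 6 at Col1a1 and 2 of the 9 at Spp1. Over the whole rib list 24.6% of peaks were Class I.

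**Figure D1:**
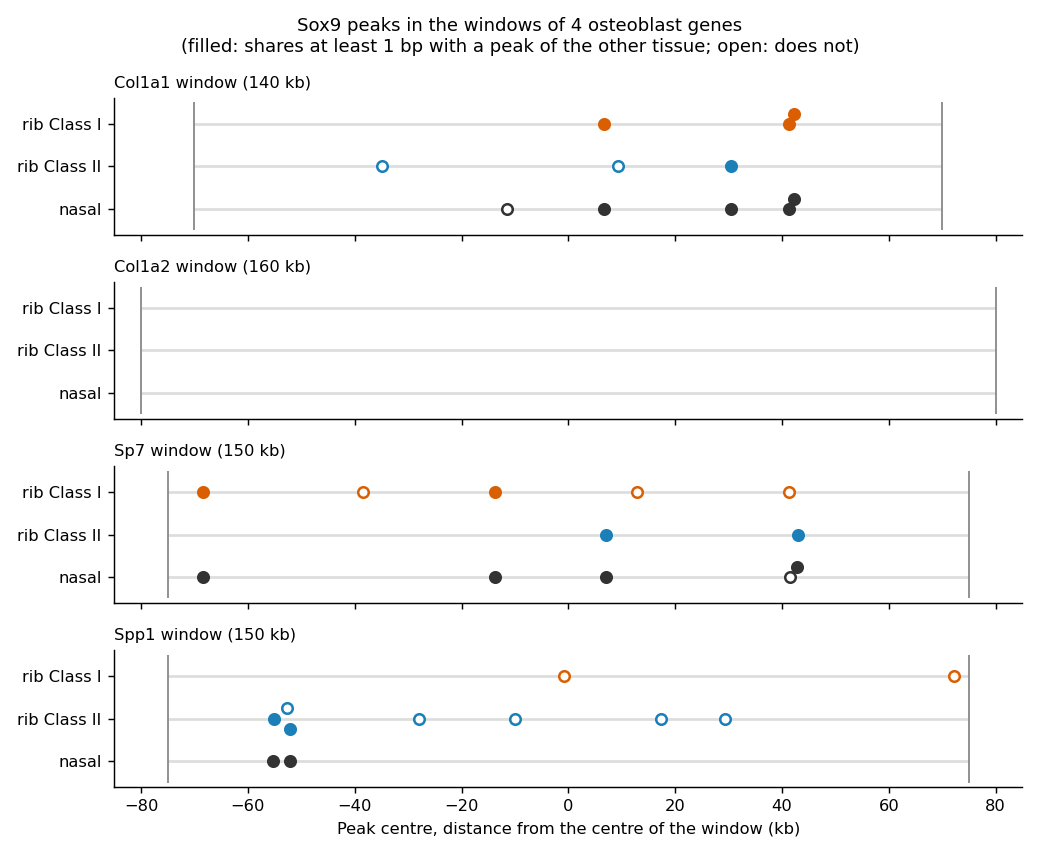
Sox9 peaks in the 4 gene windows, with the horizontal axis giving the distance of each peak's centre from the centre of the window in kb, and 1 row each for rib Class I, rib Class II and nasal peaks. Filled circles share at least 1 bp with a peak of the other tissue, open circles do not, vertical lines are the window edges, and circles closer than 3 kb are set apart vertically. The Col1a2 window is empty, and the 2 nasal peaks at Spp1 lie together near its left edge.

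To place these counts against the genome, the span covered by peaks was cut into windows of the same length as each gene's. Windows of 150 kb held a mean of 1.62 rib peaks, and 50.3% of them held none. At least 9 rib peaks, as at Spp1, stood in 2.89% of the 17042 windows of 150 kb. At least 7, as at Sp7, stood in 5.68% of them. Of the 18258 windows of 140 kb, 7.25% held at least 6 rib peaks, as at Col1a1. Each of the 3 occupied windows thus lay in the upper part of the rib distribution, far below the densest window of 150 kb, which held 37. With so many windows empty, any window with peaks lies in that part. Among windows with peaks only, the shares would be higher.

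Nasal counts ordered the genes differently. At least 5 nasal peaks stood in 4.85% of the windows of Col1a1's length and in 5.65% of those of Sp7's length. At least 2, as at Spp1, stood in 23.7% of windows. Spp1 was thus the highest of the 4 genes in the rib list and below Col1a1 and Sp7 in the nasal list. When windows came from the gene's own chromosome only, the shares for Col1a1 were 12.3% in rib and 9.57% in nasal chondrocytes. On chromosome 11, 36.1% of windows of 140 kb held no rib peak, against 51.6% over the genome. No p is attached to these shares, because the genes were chosen with earlier results of these data known.

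**Figure D2:**
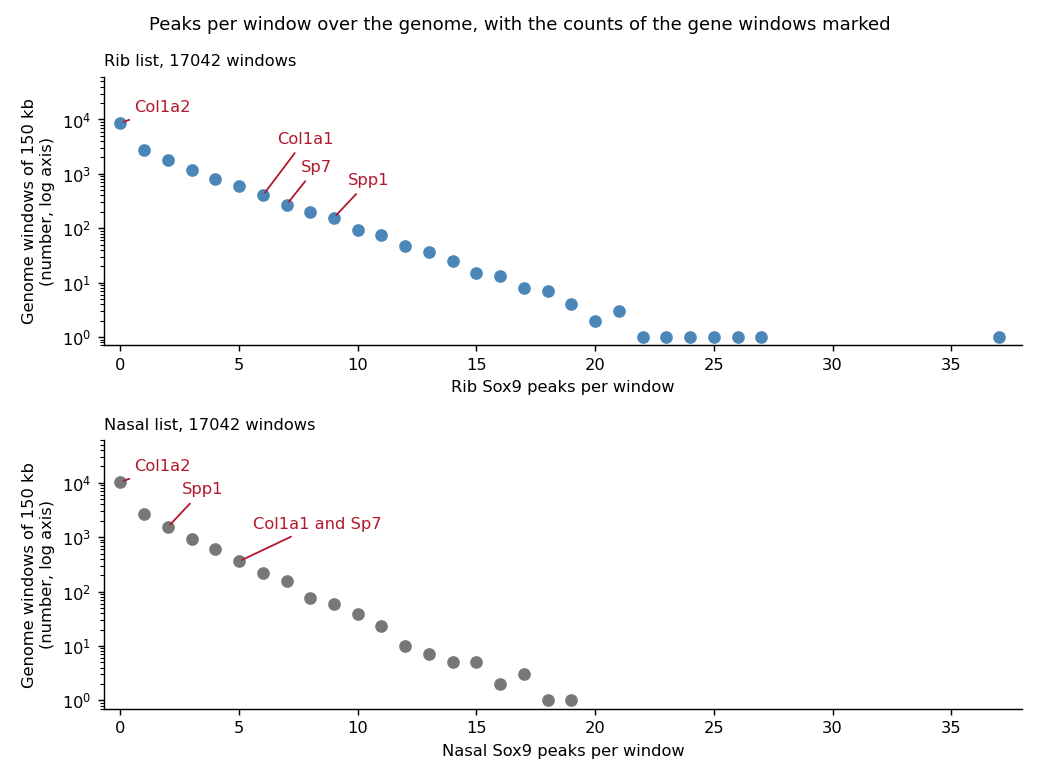
Number of genome windows of 150 kb (vertical log axis) that held each number of Sox9 peaks (horizontal axis), for the rib list above and the nasal list below, with 17042 windows in each. Red labels mark the counts of the gene windows, which are 140 kb long for Col1a1, 160 kb for Col1a2 and 150 kb for the others. Spp1 moves from 9 rib peaks to 2 nasal peaks, while Col1a1 and Sp7 lie at 5 nasal peaks. The rib list is the longer, with 27656 peaks against 17440.

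Col1a1 encodes the alpha 1 chain of type I collagen, the main protein of bone. The peak of its window that stood earliest in both lists was Class I, at chr11:94816566-94816745, line 1587 of the rib list, or 5.74% of the way down it. Its nasal partner, line 1965 of the nasal list, at 11.3%, covered all 180 bp of it, and the centres lay 13.5 bp apart. No source used here says what orders the lines, so a place describes the list and is not a strength.

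The other Class I peaks at Col1a1, both shared with nasal cartilage, lay close together. They stood at chr11:94851141-94851267, sharing 107 bp with a nasal peak, and chr11:94852150-94852310, sharing all of its 161 bp. Their rib places were 70.5% and 86.2% of the list, and the nasal partners stood at 19.5% and 68.0%. The first of these was thus much earlier in the nasal list than in the rib list. All 3 Class I peaks of the window were matched in nasal cartilage, beside 68.8% of all Class I peaks.

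Of the 3 Class II peaks at Col1a1, 1 was shared, beside 34.4% of all Class II peaks. The shared peak, chr11:94840388-94840519, had 127 of its 132 bp in common with a nasal peak, although it stood at 91.5% of the rib list. The widest peak of all 4 windows, chr11:94819053-94819500 with 448 bp, had no nasal peak within 2 kb, and its edge lay 2.31 kb from that of the leading Class I peak. The remaining Class II peak, chr11:94775106-94775282, stood apart, 41.3 kb from the next rib peak. A single nasal peak of the window, chr11:94798450-94798595, had no rib partner, and the nearest rib peak was 17970 bp away.

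In all, 4 of 6 rib peaks at Col1a1 were overlapped by a nasal peak, 66.7% (95% exact binomial interval 22.3% to 95.7%), and 4 of 5 nasal peaks by a rib peak. The whole rib list gave 42.8% and the whole nasal list 68.2%, and both values lie within the intervals for Col1a1, the nasal one being 28.4% to 99.5%. Intervals here and below treat peaks as independent and cover counting error only. Beyond the right edge of the window, 22.8 kb further, the nasal list had a peak at line 331, 1.90% of the way down, with no rib peak overlapping it.

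Col1a2 encodes the alpha 2 chain, which joins with the product of Col1a1 in type I collagen. Its window held 0 rib peaks of either class and 0 nasal peaks. Empty windows are common. Of the 15975 windows of 160 kb, 49.1% held no rib peak, 59.3% no nasal peak and 46.5% no peak of either list. The absence of listed peaks at Col1a2 is therefore not unusual for a window of its length. A peak list does not show that Sox9 was absent where no peak was listed.

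The stretch without peaks ran well past the window. No rib peak lay between chr6:4036929-4037122, a Class I peak 363 kb to the left of the window, and chr6:4690401-4690597, a Class II peak 130 kb to its right. That gap of 653 kb was exceeded or equalled by 2.23% of all gaps between neighbouring rib peaks, and gaps of at least that length took up 39.9% of the summed length of gaps. In the nasal list the gap was 1242 kb, with 2.01% of gaps as long or longer and 38.2% of the summed length in them. Its left border, chr6:3448320-3448478, was the first nasal peak on chromosome 6. The window lies near the start of the listed peaks of that chromosome, with 3 rib peaks and 1 nasal peak before it. The right border was the same place in both tissues, as the nasal peak there, chr6:4690497-4690658, overlapped the rib peak. Of the type I collagen genes, Col1a1 thus had 6 rib and 5 nasal peaks, with 4 of the rib peaks overlapped by a nasal one, and Col1a2 had 0. With 46.5% of windows of 160 kb empty in both lists, this describes the lists. A difference between the genes was not tested.

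Promoter sequence was available only for Col1a2 and Spp1 among the 4 genes, in a RefSeq table on GRCm38.p6, and is shown for that reason. This promoter table has no entry for Col1a1 or Sp7. The build differs from that of the peaks, so whether a peak covers a printed promoter was not determined. Both sequences run 5′ to 3′ over the 250 bases before the start of the gene on its plus strand. Capitals mark matches of the SOX-type hexamer ACAAAG, searched as ACAAAG and, on the other strand, CTTTGT.
Col1a2, GRCm38.p6 chr6:4505368-4505617, plus strand: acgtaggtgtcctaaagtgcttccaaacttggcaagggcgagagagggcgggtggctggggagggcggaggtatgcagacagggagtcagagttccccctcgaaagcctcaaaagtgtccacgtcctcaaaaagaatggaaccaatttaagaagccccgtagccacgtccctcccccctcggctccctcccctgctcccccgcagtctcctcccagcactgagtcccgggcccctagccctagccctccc
Spp1, GRCm38.p6 chr5:104434861-104435110, plus strand: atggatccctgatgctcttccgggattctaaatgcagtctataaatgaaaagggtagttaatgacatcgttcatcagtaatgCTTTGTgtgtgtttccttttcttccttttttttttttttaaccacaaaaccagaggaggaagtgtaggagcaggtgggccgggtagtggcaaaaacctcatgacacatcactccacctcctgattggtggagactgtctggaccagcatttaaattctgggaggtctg

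The Spp1 promoter held 1 match of ACAAAG, on the other strand, and the Col1a2 promoter 0. Over their full 300 bases neither held ACAATG (or CATTGT) or the shorter ACAAT (or ATTGT), which every ACAATG contains. Among all 32851 promoters of the table, 18.7% held ACAAAG, 12.6% ACAATG and 31.0% ACAAT on either strand, so a single match is common. The Col1a2 stretch was richer in G and C, at 62.0% of the printed bases against 43.6% at Spp1. The second Spp1 start of the promoter table also held 1 ACAAAG match. A match is a run of letters and not a measured site.

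Sp7, also called osterix, is the zinc-finger factor without which osteoblasts do not form. Its window was the richest of the 4 in Class I peaks, with 5, a number that 1.08% of windows of 150 kb reached. In the RefSeq gene table of GRCm38.p6, which was used for gene order only, Aaas and Sp1, which encodes another zinc-finger factor of the same family, are the nearest protein-coding neighbours of Sp7. Which of these genes a peak lies in was not determined.

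Among the 5 Class I peaks of the Sp7 window, 2 were overlapped in nasal cartilage, beside 68.8% of all Class I peaks. The peak chr15:102181139-102181250 shared 108 of its 112 bp with a nasal peak and stood at 25.3% of the rib list, its partner at 14.5% of the nasal list. The peak chr15:102126516-102126713 shared 172 bp, with places of 86.8% and 47.9%. Another, chr15:102236241-102236312, shared no base but lay 33 bp from the nasal peak chr15:102236346-102236468. That nasal peak was line 138 of 17440, 0.791% of the way down and the earliest of all 34 peaks, and the rib peak stood at 11.9%. By the rule of 1 shared bp this pair counted as unmatched in both tissues, whereas with centres up to 200 bp apart it counted as shared.

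The other Class I peaks at Sp7 had no nasal peak nearby. At chr15:102156530-102156618 the nearest nasal peak was 24480 bp away, and at chr15:102207747-102207817 it was 5674 bp away. They stood at 86.8% and 77.0% of the rib list and measured 89 and 71 bp, the latter the narrowest peak of all 4 windows.

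Both Class II peaks at Sp7 were shared, beside 34.4% of all Class II peaks. The peak chr15:102201864-102202096, at 24.5% of the rib list, contained a nasal peak of 137 bp whole. The peak chr15:102237841-102237941 shared 91 of its 101 bp and lay 1.53 kb from the Class I peak beside the early nasal peak. Altogether 4 of 7 rib peaks at Sp7 were overlapped, 57.1% (18.4% to 90.1%), and 4 of 5 nasal peaks, 80.0% (28.4% to 99.5%). The list-wide shares of 42.8% in rib and 68.2% in nasal again lie within these intervals.

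Peaks continued on both sides of the Sp7 window. Just inside its right edge the nearest peak was 32.1 kb away, and just outside it a shared Class II peak, chr15:102273039-102273183, lay 3.11 kb away. On the left a shared Class I peak lay 6.61 kb inside and another 30.5 kb outside. Widening each window by 50 kb on both sides raised the Sp7 rib count from 7 to 14, of which 11 were Class I, and brought the nasal count to 13.

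Spp1 encodes osteopontin, a phosphoprotein of mineralised matrix that hypertrophic chondrocytes also make. Its window had 7 Class II peaks, a number that 3.57% of windows of 150 kb reached, and 2 Class I peaks. In the RefSeq gene table its neighbours are Mepe, which encodes another protein of mineralised matrix, and Pkd2, which encodes a cation channel. Only the left end of the window had nasal peaks.

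The shared peaks at Spp1 were both Class II and early in the rib list. The peak chr5:104812765-104812909, line 704 of the rib list at 2.55%, lay whole within a nasal peak, with centres 8.5 bp apart. The peak chr5:104809734-104809884, line 1119 at 4.05%, shared 121 of its 151 bp with the other nasal peak. Their nasal partners stood at 26.1% and 25.7% of the nasal list. Between them lay a Class II peak of 302 bp, chr5:104812143-104812444, that shared no base with a nasal peak but lay 284 bp from one.

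The other 6 rib peaks at Spp1 had no nasal peak within 24 kb. The Class II peaks among them stood at chr5:104837001-104837214, chr5:104854913-104855152, chr5:104882280-104882432 and chr5:104894265-104894494. Their places in the rib list were 71.0%, 69.4%, 18.9% and 69.4%, so 1 of the 4 was early. The Class I peak nearest to the centre of the window, chr5:104864061-104864231, stood at 94.1% of the rib list, the latest place of the 22 rib peaks. The second Class I peak, chr5:104937094-104937248, lay 2.83 kb inside the right edge and stood at 55.6%.

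Nasal peaks overlapped 2 of the 9 rib peaks at Spp1, 22.2% (2.81% to 60.0%), and both nasal peaks overlapped a rib peak, 100% (15.8% to 100%). The list-wide shares of 42.8% in rib and 68.2% in nasal lie within these intervals. After the second nasal peak the nasal list had no entry for 1032 kb, a gap reached by 2.55% of nasal gaps, with 42.3% of the summed gap length in them. After the last rib peak the rib list had none for 907 kb, a gap reached by 1.51% of rib gaps, with 33.9% of the summed gap length in them. Just outside the left edge, 2.20 kb away, was a further Class II peak at 94.1% of the rib list without a nasal partner.

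At Col1a1 the outermost rib peaks lay 35.2 kb inside the left edge and 27.8 kb inside the right edge, and the nearest outside lay 249 kb and 56.8 kb away. Widening the window by 50 kb on each side left the Col1a1 rib count at 6 and raised its nasal count from 5 to 6, through the nasal peak 22.8 kb beyond the right edge.

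**Figure D3:**
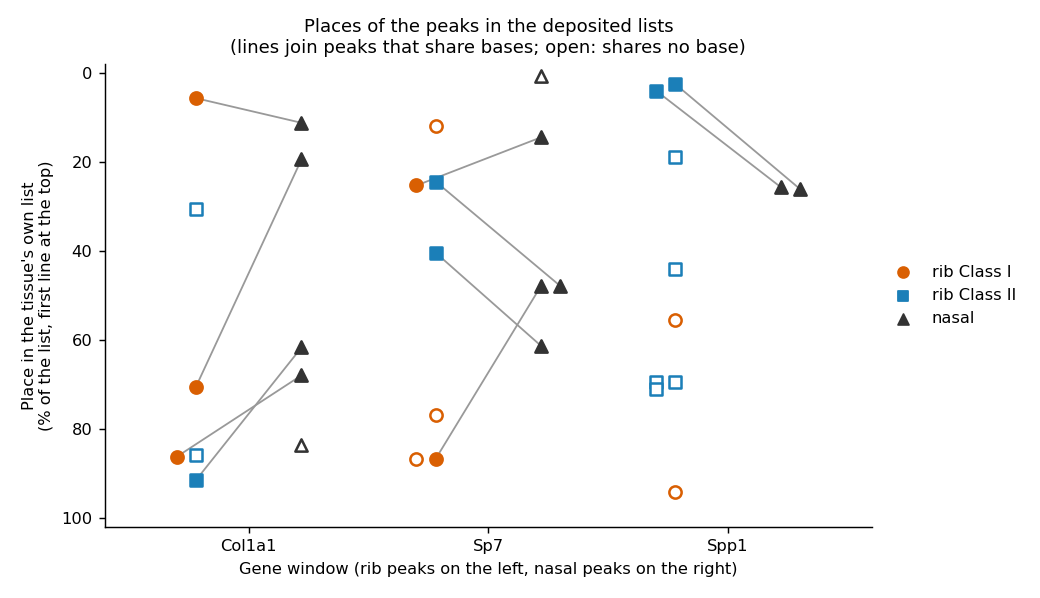
Place of each peak in its own list (vertical axis, % of the list, first line at the top) for the 3 windows with peaks, rib peaks on the left and nasal peaks on the right of each gene. Circles are rib Class I, squares rib Class II and triangles nasal peaks, lines join peaks that share bases, open symbols share none, and close symbols are set apart horizontally. The shared Spp1 peaks stand at 2.55% and 4.05% of the rib list, and the unmatched nasal peak of Sp7 at 0.791% of the nasal list.

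Over the 4 windows, nasal peaks overlapped 10 of 22 rib peaks, 45.5% (24.4% to 67.8%), against 42.8% of all rib peaks. By class, 5 of 10 Class I peaks were overlapped, 50.0% (18.7% to 81.3%), against 68.8% of all Class I peaks. Of the Class II peaks 5 of 12 were overlapped, 41.7% (15.2% to 72.3%), against 34.4% of all Class II peaks. Rib peaks overlapped 10 of 12 nasal peaks, 83.3% (51.6% to 97.9%), against 68.2% of all nasal peaks. Each list-wide share lay within the interval of the windows, so sharing between tissues at these genes could not be told from that of the lists at this number of peaks. The Class I peaks divided by gene, with 3 of 3 shared at Col1a1, 2 of 5 at Sp7 and 0 of 2 at Spp1, and this difference between genes was not tested.

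Places and widths of the members are given beside those of the lists. The median place was 62.5% for the 22 rib peaks, 73.7% for Class I and 42.3% for Class II, beside 61.4% for all Class I and 45.7% for all Class II peaks. Shared rib peaks had a median place of 32.9% and the others 69.4%, against 33.6% and 60.3% in the whole list. The 3 rib peaks within the first 10% of the list, 1 at Col1a1 and 2 at Spp1, were all shared. Shared peaks stood earlier over the whole list too. The overlapped share of its first 10% was not computed, so these 3 cannot be read as a trait of the members. Median width was 158 bp in rib and 159.5 bp in nasal members, against 180 bp and 182 bp in the lists.

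Class and tissue composition were tested window by window over the genome. Of 8465 windows of 150 kb with a rib peak, 16 (0.189%) differed in the ratio of Class I to Class II from the rest of the list (two-sided Fisher exact test, Benjamini-Hochberg adjusted p below 0.05), all 16 richer in Class I. Class I is the smaller class, 24.6% of the list, so fewer peaks suffice to pass as richer in Class I than in Class II. The direction of the 16 is therefore not read as a result. Fitted together with the 8465 windows, the Sp7 window did not pass. The odds ratio (Class I over Class II, inside against outside) was 7.68 (Fisher exact p = 0.0119, adjusted p = 0.451). With the gene windows widened by 50 kb it passed, at an odds ratio of 11.3 (adjusted p = 0.0255 by the Fisher exact test), through Class I peaks that lie outside the window of the rule. The genome windows stayed at 150 kb, so the widened window was longer than those it was adjusted with. The Col1a1 window had an odds ratio of 3.07 (adjusted p = 0.983) and the Spp1 window 0.877 (adjusted p = 1), both by the Fisher exact test. The Col1a1 test could not have passed, since with all 6 peaks in Class I the adjusted p would have been 0.0664 by the Fisher exact test, and with all in Class II it would have been 1. At Sp7 and Spp1, all peaks in Class I would have given an adjusted p of 0.0273 and 0.00687, and all in Class II 0.983 and 0.982, so these windows could pass only as richer in Class I. The test takes peaks as independent, which was not tested. The genes were chosen with earlier results of these data known, and no p of these window tests allows for that choice.

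Between the tissues, 0 of 8901 windows (0%) passed the Fisher exact test after adjustment and 30 had an unadjusted p below 0.05. The odds ratio of rib over nasal peaks was 2.84 at Spp1 (exact p = 0.221), 0.883 at Sp7 (exact p = 1) and 0.757 at Col1a1 (exact p = 0.759), each with an adjusted p of 1. None of these 3 windows could have passed in either direction. With all peaks of the window in the rib list the adjusted p by the Fisher exact test would have been 1 for each, and with all in the nasal list 0.257 at Col1a1 and Spp1 and 0.0994 at Sp7. The surplus of rib peaks at Spp1, 9 against 2, is therefore a description of 2 lists. The rib list is also the longer, with 27656 peaks against 17440.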

How the data were processed

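The authors deposited 4 Sox9 peak lists with chromosome, start and end and no other unit, on mm9 per the submitters' processing notes. An FDR tag of unexplained unit stands in the list names, and no source used here names the aligner or peak caller. Peaks were placed by their centres, and starts are printed 1-based. Members, lists and rules were chosen with earlier results of these data known. The rule for named peaks was every peak of a window with 15 rib peaks or fewer, with the nearest peak on each side of its edges. Genome windows were whole, non-overlapping and within the span of the peaks on 20 chromosomes, gaps in the assembly included. Overlap meant at least 1 shared bp, and intervals are 95% exact (Clopper-Pearson). Window tests were Fisher exact tests with Benjamini-Hochberg adjustment over all windows with peaks and the gene windows together. Col1a2, without peaks, had no test. Checked against bedtools 2.31.1, the overlap call was different for 0 of 27656 rib peaks. On class labels drawn at random, the window test called 100 of 100 windows planted as all Class I, each with at least 12 peaks, and 0 of 8365 others. The tested gene windows held fewer rib peaks, 6, 7 and 9, so this check does not show what the test can detect in them. Sequences were copied from RefSeq promoters of GRCm38.p6, matched by symbol for 2 of 4 genes. Tests ran in scipy 1.17.1, tables in pandas 2.3.3 and numpy 2.4.6, and figures in matplotlib 3.10.9, under Python 3.11.15. Alternatives moved the window edges, the overlap rule, the genome windows and the length of the lists. Osteoblast and cartilage genes outside the windows need mm9 annotation and were not analysed here.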

Additional observations from a re-analysis of the deposited data

How the results depend on the processing

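The counts moved with the window edges and with the length of the lists, and the Col1a2 window stayed at 0 peaks under each alternative run. Widening every gene window by 50 kb on each side gave 16 Class I, 21 nasal and 16 overlapped rib peaks over the 4 windows. It also took the class test at Sp7 past the threshold, at an odds ratio of 11.3, with 14 rib peaks in its window. The genome windows of that test stayed at 150 kb. The central 50% of each window held 12 rib, 4 Class I and 5 nasal peaks, of which 4 rib peaks were overlapped, as the windows were then shorter. The first 50% of each list by place left 10 rib peaks, 3 of Class I and 7 of Class II, with 5 overlapped, as fewer peaks were used. Taking peaks by any shared base changed no count. Overlapped rib peaks numbered 10 under a minimum of 50% of each peak, 11 with centres within 200 bp and 12 with edges up to 1 kb apart. Of the recomputed values over the 4 windows or of the tests, 11 moved and 1 became stronger. The remaining 34 kept their direction and side of the threshold or stayed within 1.5 times. They include the values by any shared base and by the other overlap rules given above. Over the 23 recomputed window tests the adjusted p ranged from 0.0255 to 1. Of 124 recomputed values for single genes 42 moved. The rib and nasal odds ratio at Spp1 had no finite value in the central window, which held no nasal peak. No paired analysis was possible because each tissue had 1 Sox9 library. Depth behind the peaks is unknown.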

Other observations

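Some members were written on consecutive lines of the lists. The Sp7 peaks chr15:102126516-102126713 and chr15:102156530-102156618 were lines 23996 and 23997 of the rib list, 29.8 kb apart in the genome. In the nasal list, lines 8353 and 8354 were the Sp7 peaks chr15:102126542-102126750 and chr15:102201936-102202072. Over the whole lists, 1.28% of the 27655 pairs of consecutive rib lines and 1.34% of the 17439 nasal pairs named peaks with centres within 100 kb of each other. What this says about the order of the lists was not tested, and it limits how finely a place can be read.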
